A study of Homo sapiens with 3 samples.

Results

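The genes described here are 9 regulators of the ubiquitination of MYC-family proteins, read from the gene table of H660 cells treated with the HSP70 inhibitor JG231. They were chosen by name, as the rows whose symbol was STUB1, FBXW7, HUWE1, SKP2, TRIM32, USP7, USP28, USP36 or UBB, and all 9 were found among 58735 genes. Of these, 5 encode E3 ubiquitin ligases or their substrate receptors, 3 encode deubiquitinases and 1 encodes ubiquitin itself.

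H660 (NCI-H660) is an established neuroendocrine prostate cancer (NEPC) cell line, and all 3 libraries came from the parental line, with no genetic change described in the labels. A single record was given for each of vehicle (DMSO), 2.5 μM JG231 and 5 μM JG231, with treatment for 24 h, so there was 1 library per condition and no replicate error. JG231 is an allosteric inhibitor of HSP70, and the study asked how its binding alters the turnover of N-Myc through STUB1. The records name the cell type as prostatic adenocarcinoma, whereas the neuroendocrine markers SYP, CHGA, ENO2, NCAM1 and INSM1 were between 3.40 and 46.0 FPKM (fragments scaled to transcript length and library size) and the luminal genes KLK3 and TMPRSS2 were at 0.32 FPKM or less in every library.

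Ubiquitin is attached to a protein by an activating enzyme (E1), a conjugating enzyme (E2) and a ligase (E3) that chooses the substrate, and chains of ubiquitin send the protein to the proteasome. MYC proteins are short-lived because several ligases mark them, among them FBXW7, the receptor of an SCF (SKP1, cullin and F-box) complex that reads a phosphorylated degron. STUB1, also called CHIP, docks on the C-terminal tails of HSP70 and HSP90 and ubiquitinates the proteins those chaperones hold. Deubiquitinases remove the chains again. RNA levels such as these do not measure the amount or the activity of the proteins.

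The sequences that bear on the reading of UBB, the most abundant of the 9 genes, are its own repeats. UBB (ENSG00000170315) is a polyubiquitin gene, whose product is cut into single ubiquitins. Its coding sequence lies in exon 2 on the plus strand of chromosome 17 (GRCh38) and holds 3 repeats of 228 bases, or 76 codons each, at chr17:16381908-16382135, chr17:16382136-16382363 and chr17:16382364-16382591. Capitals mark the bases at which a repeat differs from both of the others, 6 in repeat 1, 2 in repeat 2 and 6 in repeat 3.
UBB repeat 1: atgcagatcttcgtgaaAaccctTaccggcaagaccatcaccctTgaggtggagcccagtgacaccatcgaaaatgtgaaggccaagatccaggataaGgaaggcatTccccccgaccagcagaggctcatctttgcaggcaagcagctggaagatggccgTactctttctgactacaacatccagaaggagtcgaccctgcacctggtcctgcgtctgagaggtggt
UBB repeat 2: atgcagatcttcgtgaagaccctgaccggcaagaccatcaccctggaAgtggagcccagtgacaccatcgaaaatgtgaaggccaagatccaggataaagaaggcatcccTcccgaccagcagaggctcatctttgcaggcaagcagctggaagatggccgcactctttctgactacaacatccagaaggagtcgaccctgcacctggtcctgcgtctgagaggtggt
UBB repeat 3: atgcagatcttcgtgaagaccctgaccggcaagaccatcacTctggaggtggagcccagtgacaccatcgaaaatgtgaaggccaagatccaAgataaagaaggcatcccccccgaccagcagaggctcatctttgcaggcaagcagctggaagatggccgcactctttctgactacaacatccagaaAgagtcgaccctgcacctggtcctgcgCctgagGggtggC
The repeats shared 96.49% (1 and 2), 94.74% (1 and 3) and 96.49% (2 and 3) of their bases, and the longest run without a difference between aligned repeats was 77 bases. Reads were 150 bases long. No stretch of 150 bases from the canonical UBB transcript occurred on the same strand in a transcript of another gene. On the opposite strand, 214 of 784 such stretches (27.3%) were shared with the overlapping lncRNA ENSG00000265401, which was listed at 0 in all 3 libraries. Of the processed copies, UBBP1, UBBP2, UBBP3 and UBBP5 were listed at 0, and UBBP4 was at 0.0342 FPKM with DMSO, 0.027 with 2.5 μM and 0.2061 with 5 μM.

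For STUB1 (ENSG00000103266, chromosome 16, 680224 to 682870, plus strand) the oligonucleotides that the study designed against its mRNA are shown, because they mark the exons through which the gene was measured by PCR and silenced elsewhere in the work. They are in lower case throughout, with no base marked.
STUB1-F, forward PCR primer: aggccaagcacgacaagtacat
siSTUB1, without its 2 overhanging deoxythymidines: cucaaugcuguuccagcgc
The primer matched the sense strand across the junction of exons 4 and 5 (GRCh38, chr16:681870-682030), at bases 718 to 739 of the canonical transcript. The siRNA strand was complementary to bases 551 to 569 in exon 3 (chr16:681514-681532).

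The 3 libraries differed in depth and in a trend with transcript length, and both touch the values that follow. From the steps of the FPKM values the libraries held about 16100000 (DMSO), 20400000 (2.5 μM) and 24100000 (5 μM) fragments. Among protein-coding genes the log2 difference against DMSO went down with the length of the canonical transcript. In the decile of shortest transcripts (median 944.5 bases) the median difference was 0.43 at 2.5 μM and 0.61 at 5 μM, and in the decile of longest ones (median 9227.5 bases) it was -0.26 and -0.52. For each gene a difference with this trend removed is therefore given where it alters the reading. The part of RNA quality in the trend was not tested.

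All 9 genes were above 1 FPKM in every library. Differences are log2 ratios of FPKM with 0.1 added to each value, and a gene was counted as higher or lower when its FPKM was over 1 in either library and the log2 difference exceeded 0.25. At 2.5 μM against DMSO, 7 of the 9 genes passed this limit, 3 higher and 4 lower, against 79.8% of the 15746 genes that could be counted (36.4% higher and 43.4% lower). At 5 μM, 6 of 9 passed, 3 higher and 3 lower, against 81.6% of 15765 genes (36.5% higher and 45.1% lower). The limit was thus passed by most of the genes counted, and the share among the 9 genes, in either direction, was near that background. The balance of directions differed with level, and 8 of the 9 genes had a mean of at least 5 FPKM. Of the 7583 genes at that level, 48.0% were higher and 26.1% lower at 2.5 μM, and 48.8% and 27.4% at 5 μM. Among the 8 members, 3 were higher and 4 lower at 2.5 μM, and 3 higher and 3 lower at 5 μM. A log2 difference over 1 was reached at either dose by TRIM32 (higher) and HUWE1 (lower), 2 of 9 genes, against 34.6% of all genes at 2.5 μM (12.9% higher and 21.7% lower) and 38.9% at 5 μM (14.7% higher and 24.3% lower). The median difference of the 9 genes was -0.23 at 2.5 μM and -0.04 at 5 μM, beside 0.00 and -0.01 over the 13785 genes with a mean of at least 1 FPKM. Scaling to a common sum without mitochondrial and small RNA genes left 2 of the 9 genes higher and 6 lower at each dose. The shares of all genes were then 24.6% higher and 56.2% lower at 2.5 μM and 22.9% and 60.1% at 5 μM. Both doses were set against the same DMSO library, so their values are not independent of each other. In bulk RNA, fewer cells of a kind and less RNA per cell cannot be told apart.

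**Figure D1:**
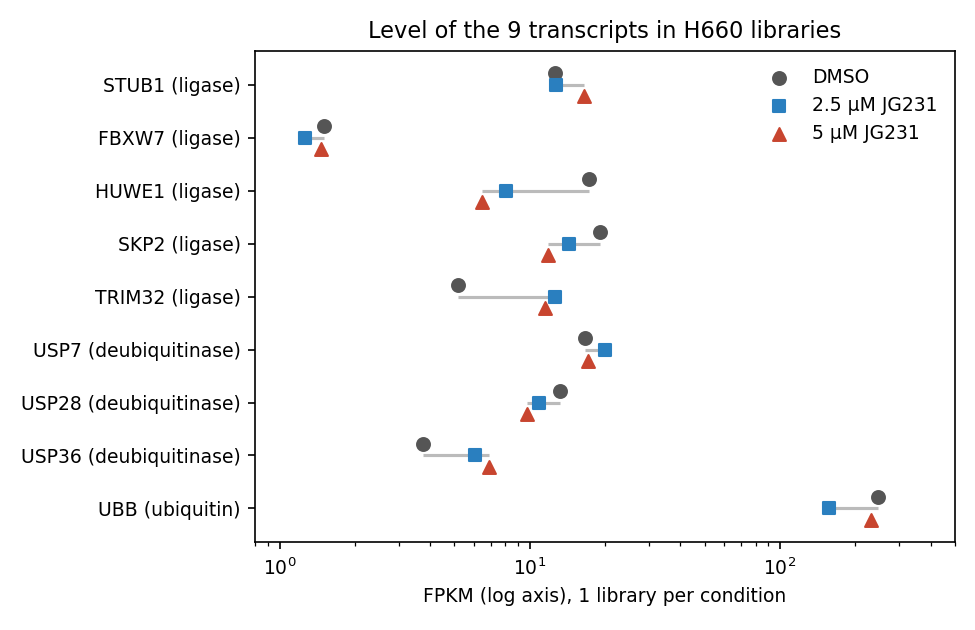
FPKM (log axis) of the 9 genes in the 3 libraries, 1 point per library. UBB lies at 157.1 FPKM or above in every library and FBXW7 at 1.50 or below, TRIM32 is above its DMSO value in both JG231 libraries, and HUWE1 is below it in both.

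With no replicates, each difference was set beside a spread, a robust SD of how far the JG231 libraries differed from each other on the log2 scale, taken over 500 genes with the most similar mean FPKM. This spread also holds any true difference between the doses. Intervals given below are 95% intervals from the approximate number of fragments and cover counting error only. Of the 9 genes, 5 differed from DMSO by more than their spread at 2.5 μM and 6 did at 5 μM, beside 61.7% and 65.2% of the 13785 genes with a mean of at least 1 FPKM. The share among the 9 genes was thus near that of all genes.

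STUB1 was measured at 12.7 FPKM with DMSO, 12.8 with 2.5 μM and 16.5 with 5 μM, from about 472, 602 and 918 fragments. The DMSO and 2.5 μM libraries were level and the 5 μM library was higher. The log2 difference from DMSO was 0.01 at 2.5 μM (interval -0.17 to 0.19) and 0.37 at 5 μM (interval 0.22 to 0.54), against a spread of 0.29. STUB1 has a short transcript (1340 bases), and genes of that length had a trend of 0.46 at 5 μM. With the trend removed, the 5 μM value of STUB1 turned to -0.09 and the 2.5 μM value became -0.32. The 5 μM value was also not above DMSO (-0.0029) when the libraries were scaled to a common sum without mitochondrial and small RNA genes, so its direction depended on the scaling. Among the expressed genes of each library STUB1 stood at the percentile 76.0 in DMSO, 70.2 at 2.5 μM and 75.9 at 5 μM.

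STUB1 overlaps JMJD8, which lies on the opposite strand and shares 985 bases of exon with it, 42.5% of the exon bases of STUB1. JMJD8 was at 5.16, 3.89 and 8.64 FPKM in DMSO, 2.5 and 5 μM. JMJD8 was therefore also highest in the library where STUB1 was highest. In all, 295 of 1191 stretches of 150 bases in the canonical STUB1 transcript (24.8%) occurred in JMJD8 on the opposite strand. The libraries were stranded, but whether the strand was used in counting is not given in the sources used here, and the part of JMJD8 fragments in the STUB1 values was not tested.

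HUWE1 (ENSG00000086758, chromosome X, 53532096 to 53686752, minus strand) encodes a very large HECT-type ligase that acts on MYC, N-Myc and MCL1. It was at 17.3 FPKM with DMSO, 8.07 with 2.5 μM and 6.45 with 5 μM. Both JG231 libraries were thus below DMSO, by log2 differences of -1.09 (interval -1.17 to -1.03) and -1.41 (interval -1.49 to -1.35), the latter 2.66-fold lower. These exceeded its spread of 0.31. HUWE1 also has the longest transcript of the 9 genes (14731 bases), and the trend at that length was -0.69 at 5 μM. With the trend removed HUWE1 remained lower, at -0.69 for 2.5 μM and -0.72 for 5 μM. Its percentile among expressed genes was 83.1 in DMSO, 56.8 at 2.5 μM and 49.9 at 5 μM.

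TRIM32 (ENSG00000119401, chromosome 9, 116687305 to 116701300, plus strand), a RING-type ligase of the tripartite motif family, was the ligase that exceeded DMSO by more than the spread in both treated libraries. Its values were 5.18 FPKM with DMSO, 12.6 with 2.5 μM and 11.5 with 5 μM. These are 2.40-fold and 2.20-fold of DMSO, or log2 differences of 1.26 (interval 1.09 to 1.47) and 1.14 (interval 0.97 to 1.34), with a spread of 0.33. At its length of 3715 bases the trend was close to 0, and removing it left 1.25 and 1.18. The JG231 libraries differed from each other by -0.12, which is within the spread. TRIM32 lies inside ASTN2, a gene on the opposite strand with which it shares no exon base and which was at 6.96, 6.38 and 7.13 FPKM in DMSO, 2.5 and 5 μM.

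SKP2 (ENSG00000145604, chromosome 5, 36151989 to 36196849, plus strand) encodes an F-box protein that ubiquitinates MYC and the cell cycle inhibitor p27. It was at 19.2 FPKM with DMSO, 14.4 with 2.5 μM and 11.8 with 5 μM. In the vehicle library it was the highest of the 5 ligases, but above HUWE1 by only 0.15 on the log2 scale, within the spread of HUWE1 (0.31). The log2 differences of SKP2 from DMSO, -0.41 and -0.70, exceeded its spread of 0.27 and were -0.42 and -0.65 with the length trend removed. SKP2 shares 365 exon bases (2.1%) with NADK2 on the opposite strand, which was at 9.39, 8.74 and 8.92 FPKM. The small RNA gene RNU6-1305P, on the same strand and outside its exons, was at 16.1 FPKM in DMSO and listed at 0 in both JG231 libraries.

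FBXW7 (ENSG00000109670, chromosome 4, 152320544 to 152536092, minus strand), the phosphodegron receptor, was the lowest of the 9 genes in every library. It was at 1.50 FPKM with DMSO, 1.27 with 2.5 μM and 1.46 with 5 μM, from about 273, 291 and 397 fragments. The differences of -0.23 (interval -0.49 to -0.01) and -0.04 (interval -0.27 to 0.19) were below the limit of 0.25 and far below its spread of 0.89. The 5 μM value was 0.23 with the length trend removed, and the values at 2.5 and 5 μM were -0.50 and -0.39 without mitochondrial and small RNA genes in the scaling. At this depth no difference in FBXW7 could be told from the variation among genes of its level.

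**Figure D2:**
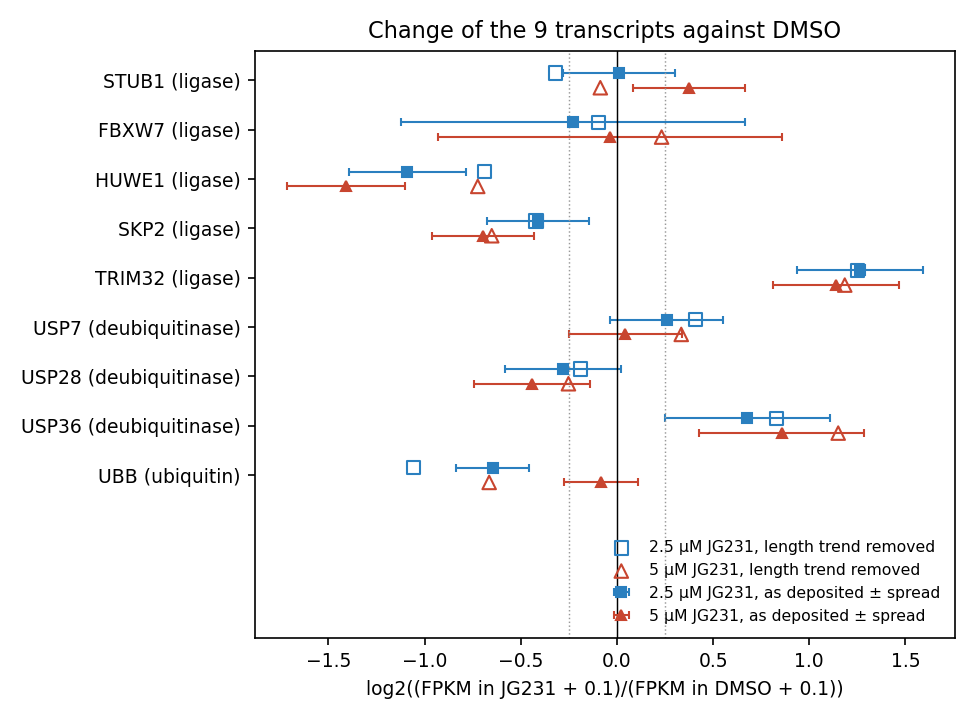
Log2 difference from DMSO of the 9 genes at 2.5 μM and 5 μM JG231, as deposited (filled symbols, bars of 1 spread to either side) and with the length trend removed (open symbols); dotted lines mark the limit of 0.25. The filled symbols of TRIM32 and USP36 lie above 0 and those of HUWE1 and SKP2 below 0 by more than the bar at both doses, and the open symbol of STUB1 at 5 μM lies on the other side of 0 from the filled one.

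The 3 deubiquitinases did not share a direction. USP36 (ENSG00000055483, chromosome 17, 78787381 to 78841441, minus strand), a nucleolar enzyme that removes ubiquitin from MYC, was at 3.74 FPKM with DMSO, 6.05 with 2.5 μM and 6.85 with 5 μM. Both JG231 libraries were above DMSO, with log2 differences of 0.68 (interval 0.55 to 0.84) and 0.86 (interval 0.73 to 1.01), or 1.60-fold and 1.81-fold, against a spread of 0.43. USP36 has a long transcript (5872 bases), and removing the trend gave 0.83 and 1.15.

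USP28 (ENSG00000048028, chromosome 11, 113797874 to 113875572, minus strand), which counters the ubiquitination of MYC by FBXW7, was at 13.2 FPKM with DMSO, 10.9 with 2.5 μM and 9.71 with 5 μM. The difference of -0.28 at 2.5 μM was within the spread of 0.30 and that of -0.44 at 5 μM was beyond it. With the length trend removed they were -0.19 and -0.25, and without mitochondrial and small RNA genes in the scaling they were -0.57 and -0.82, beyond the spread at both doses. The lncRNA ENSG00000256452 on the opposite strand shares no exon base with USP28 and was at 4.33 FPKM with DMSO, 2.17 with 2.5 μM and 0 with 5 μM.

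USP7 (ENSG00000187555, chromosome 16, 8892097 to 8975328, minus strand), a nuclear enzyme known for stabilizing MDM2, p53 and N-Myc, was at 16.6 FPKM with DMSO, 19.9 with 2.5 μM and 17.1 with 5 μM. Its difference of 0.26 at 2.5 μM was just over the limit of 0.25 and within its spread of 0.29. At 5 μM the difference was 0.04 (interval -0.03 to 0.12). The values at 2.5 and 5 μM were -0.03 and -0.33 when the libraries were scaled without mitochondrial and small RNA genes, and 0.41 and 0.33 with the length trend removed, so no direction could be given for USP7.

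UBB was at 245.8 FPKM with DMSO, 157.1 with 2.5 μM and 232.1 with 5 μM, from about 6195, 5013 and 8750 fragments. The 2.5 μM library was the low one, and the DMSO and 5 μM libraries lay close together. The log2 difference was -0.65 at 2.5 μM (interval -0.70 to -0.59) and -0.08 at 5 μM (interval -0.13 to -0.04), with a spread of 0.19. UBB has the shortest transcript of the 9 genes (933 bases), for which the length trend was 0.58 at 5 μM. With the trend removed UBB differed from DMSO by -1.06 at 2.5 μM and -0.66 at 5 μM, and without mitochondrial and small RNA genes in the scaling by -0.94 and -0.46.

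RPS27A, which encodes ubiquitin fused to a ribosomal protein, was higher than DMSO where UBB was not. It was at 104.9 FPKM in DMSO, 151.8 with 2.5 μM and 188.5 with 5 μM, or 0.53 and 0.85 above DMSO on the log2 scale. With the length trend removed, RPS27A (785 bases) was at 0.09 and 0.21, both below the limit of 0.25.

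Between the JG231 doses, 4 of the 9 genes passed the limit of 0.25, 2 higher and 2 lower at 5 μM, against 56.8% of 14197 genes (26.8% higher and 30.1% lower). UBB was higher at 5 μM by 0.56 (interval 0.51 to 0.61) and STUB1 by 0.36 (interval 0.22 to 0.52). HUWE1 was lower by 0.32 and SKP2 by 0.29 on the log2 scale. The same 4 genes exceeded their spread, beside 35.0% of all genes with a mean of at least 1 FPKM. The spread was itself taken from the differences between these libraries, so exceeding it adds no support for a difference here. Of the 9 genes, 0 reached a difference over 1, against 15.6% of all genes. With the length trend removed, the differences of HUWE1 (-0.05), SKP2 (-0.23) and STUB1 (0.24) were all below the limit. UBB (0.39), FBXW7 (0.33) and USP36 (0.32) were then the 3 higher genes and 0 were lower, beside 26.0% and 27.9% of all genes. With each library scaled to a common sum, 1 was higher and 5 were lower, beside 16.9% and 45.2% of all genes.

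**Figure D3:**
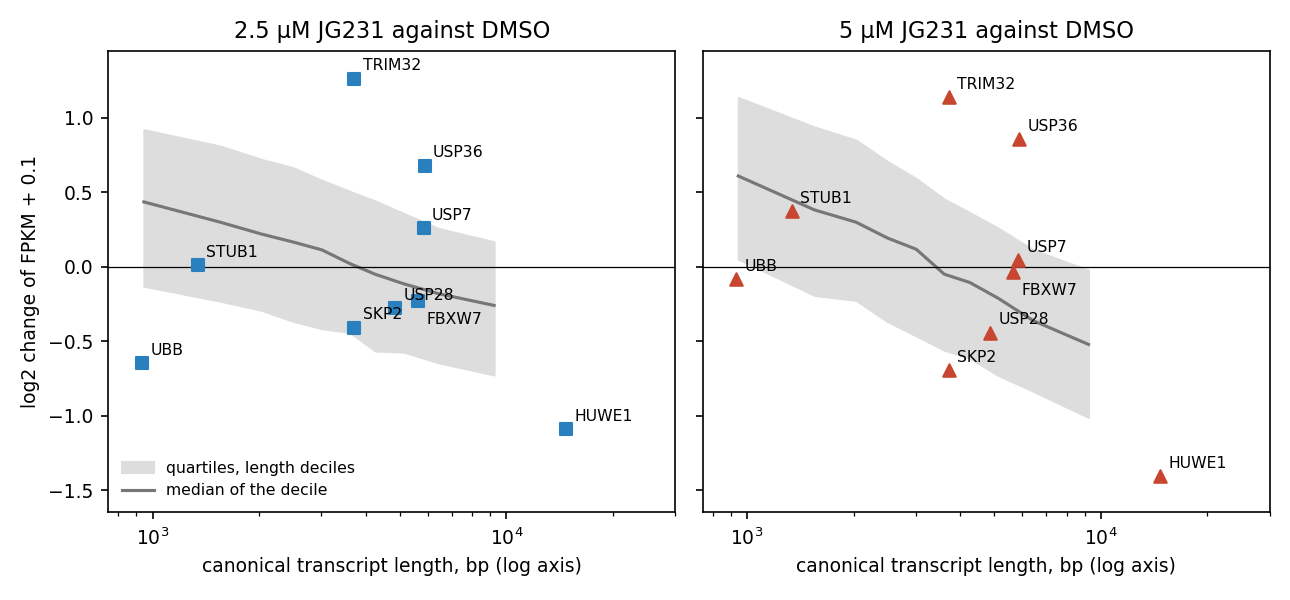
Log2 difference from DMSO against the length of the canonical transcript (log axis) at each dose, with the 9 genes as symbols and the median (line) and quartiles (band) of protein-coding genes in deciles of length. UBB (933 bases) lies below the band and TRIM32 and USP36 lie above it at both doses, STUB1 (1340 bases) is next to the line at 5 μM, and HUWE1 (14731 bases) lies to the right of the last decile.

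The order of the 9 genes by FPKM, a level per transcript length, differed between the libraries. In DMSO it ran from UBB through SKP2, HUWE1 and USP7 to USP28, STUB1, TRIM32, USP36 and FBXW7. The steps from SKP2 to HUWE1, from HUWE1 to USP7 and from USP28 to STUB1 were within the spread, and the other steps exceeded it. The spread measures how genes differed between the JG231 libraries, not the error between different genes. The steps in each library are therefore a description only. At 2.5 μM the order was UBB, USP7, SKP2, STUB1, TRIM32, USP28, HUWE1, USP36 and FBXW7, in which the neighbours from SKP2 to USP28 lay within the spread, as did HUWE1 and USP36. At 5 μM it was UBB, USP7, STUB1, SKP2, TRIM32, USP28, USP36, HUWE1 and FBXW7. USP7 and STUB1, the neighbours from SKP2 to USP28, and USP36 and HUWE1 lay within the spread there. HUWE1 went from the third place in DMSO to the eighth at 5 μM. The value of SKP2 rests on an exon length of 17377 bases over all its transcripts, against 3715 in the canonical one, so that its place relative to other genes depends on which transcripts were present.

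The counts over the pathway lists that follow are to be read against all genes. Of these, 36.4% were higher and 43.4% lower past the limit at 2.5 μM and 36.5% and 45.1% at 5 μM. Most listed genes had a mean of at least 5 FPKM, and at that level the balance was the other way. Of the 7583 such genes, 48.0% were higher and 26.1% lower at 2.5 μM and 48.8% and 27.4% at 5 μM. Each list is also given with the libraries scaled to a common sum without mitochondrial and small RNA genes, called the reduced sum here, under which 24.6% of all genes were higher and 56.2% lower at 2.5 μM and 22.9% and 60.1% at 5 μM. The shift of the list counts under the reduced sum is to be read against that shift of all genes.

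The partners of STUB1 were read from a list of 8 chaperones and cochaperones. Of these, 4 were higher and 4 lower than DMSO at 2.5 μM, and 4 were higher and 2 lower at 5 μM, with medians of -0.08 and 0.49. The shares over all genes were those just given. With the reduced sum, 1 was higher and 4 lower at 2.5 μM and 4 were higher and 4 lower at 5 μM, with medians of -0.36 and 0.11. BAG1, a nucleotide exchange factor of HSP70 that also binds the proteasome, was at 4.81, 12.4 and 11.6 FPKM in DMSO, 2.5 and 5 μM, or 1.35 and 1.25 above DMSO on the log2 scale. HSPA1B, an inducible HSP70 gene, was at 25.2, 36.4 and 52.5 FPKM, and its near-identical copy HSPA1A was at 7.21, 8.72 and 14.2 FPKM. The split of fragments between these copies is uncertain, and HSPA1A at 2.5 μM had a difference of 0.27 that was -0.02 with the reduced sum and 0.11 with the length trend removed. The most abundant chaperones of the list, named here after their values were seen, were not above DMSO. HSP90AB1 differed by -0.67 and -0.33, HSP90AA1 by -0.64 and -0.41, and HSPA8, the constitutive HSP70, by -0.47 and -0.07. Among 6 conjugating enzymes that work with STUB1, 3 were higher and 1 lower at 2.5 μM, beside 36.4% and 43.4% of all genes, and 3 were higher and 0 lower at 5 μM, beside 36.5% and 45.1%. With the reduced sum, 2 were higher and 2 lower at 2.5 μM and 3 were higher and 2 lower at 5 μM. The higher ones as deposited were UBE2D2 (43.4, 83.8 and 88.5 FPKM), UBE2D1 (log2 differences of 0.45 and 0.75) and UBE2D3 (0.70 and 0.68), members of the family that supplies ubiquitin to U-box ligases.

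The SCF ligases of FBXW7 and SKP2 share a core of cullin, adaptor and activating factors. Of 7 such genes, 3 were higher and 2 lower at each dose, with medians of -0.10 and -0.08, beside 36.4% higher and 43.4% lower of all genes at 2.5 μM and 36.5% and 45.1% at 5 μM. With the reduced sum, 2 were higher and 4 lower at 2.5 μM and 3 were higher and 4 lower at 5 μM, with medians of -0.39 and -0.46. With the length trend removed, 1 was higher and 1 lower at 2.5 μM and 3 were higher and 2 lower at 5 μM. UBE2M, which conjugates NEDD8 to cullins, was at 80.5 FPKM with DMSO, 177.7 with 2.5 μM and 183.1 with 5 μM, and it was higher by 0.78 and 0.67 with the length trend removed. CKS1B, the cofactor with which SKP2 recognizes p27, was at 47.4, 73.1 and 98.3 FPKM, with log2 differences of 0.62 and 1.05 as deposited. For this transcript of 779 bases they were 0.18 and 0.41 with the trend removed, the first of them below the limit. RBX1, the RING subunit, was higher by 0.53 and 0.65 as deposited, and by 0.17 and 0.14 with the trend removed, both below the limit. Of the activating enzymes, UBA1 differed by -0.16 and 0.15 and UBA6 by -0.26 and -0.64. UBA1 at 5 μM was -0.23 with the reduced sum, and UBA6 was 0.03 and -0.12 with the length trend removed.

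Of 11 further ligases or adaptors described for MYC proteins, TRIM6 was listed at 0, and among the other 10, 7 were higher and 1 lower at 2.5 μM and 6 were higher and 1 lower at 5 μM. Over all genes the shares were 36.4% higher and 43.4% lower at 2.5 μM and 36.5% and 45.1% at 5 μM. Among genes with a mean of at least 5 FPKM they were 48.0% and 26.1% at 2.5 μM and 48.8% and 27.4% at 5 μM. The medians of the 10 genes were 0.67 and 0.58. With the reduced sum, 6 were higher and 2 lower at 2.5 μM and 5 were higher and 3 lower at 5 μM, with medians of 0.38 and 0.20. NEDD4, a HECT-type ligase, was at 1.24 FPKM with DMSO, 9.22 with 2.5 μM and 8.86 with 5 μM, or 2.80 and 2.74 above DMSO on the log2 scale. CRY2, a cryptochrome that can act as a substrate adaptor for MYC, was at 2.24, 8.57 and 5.32 FPKM. Like TRIM32, both were higher than DMSO in both treated libraries.

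Of 9 further deubiquitinases, 3 were higher and 2 lower at 2.5 μM and 2 were higher and 3 lower at 5 μM, with medians of 0.01 and -0.02, beside 36.4% higher and 43.4% lower of all genes at 2.5 μM and 36.5% and 45.1% at 5 μM. With the reduced sum, 1 was higher and 5 lower at 2.5 μM and 2 were higher and 5 lower at 5 μM, with medians of -0.28 and -0.40. OTUB1 was at 15.4, 27.3 and 28.8 FPKM in DMSO, 2.5 and 5 μM, and USP5, which takes apart free ubiquitin chains, was at 19.5, 10.6 and 13.9 FPKM. USP37 differed by 0.43 and 0.75, with a spread of 0.59. The 2.5 μM value of USP37 was as low as 0.147 over the scalings run, below the limit. Of 8 genes that set or shield the MYC phosphodegron, 3 were higher and 1 lower at 2.5 μM and 4 were higher and 2 lower at 5 μM, with medians of 0.19 and 0.24, against the same shares of all genes. With the reduced sum, 1 was higher and 2 lower at 2.5 μM and 1 was higher and 4 lower at 5 μM, with medians of -0.10 and -0.13. The kinase gene GSK3A differed by 0.70 and 0.75, the scaffold gene AXIN1 by 0.46 and 0.37, and PPP2R5A, a regulatory subunit of the phosphatase PP2A, by -0.35 and -0.58. The 5 μM value of AXIN1 was -0.01 with the reduced sum. Over the scalings run, its 2.5 μM value was as low as 0.17, below the limit.

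**Figure D4:**
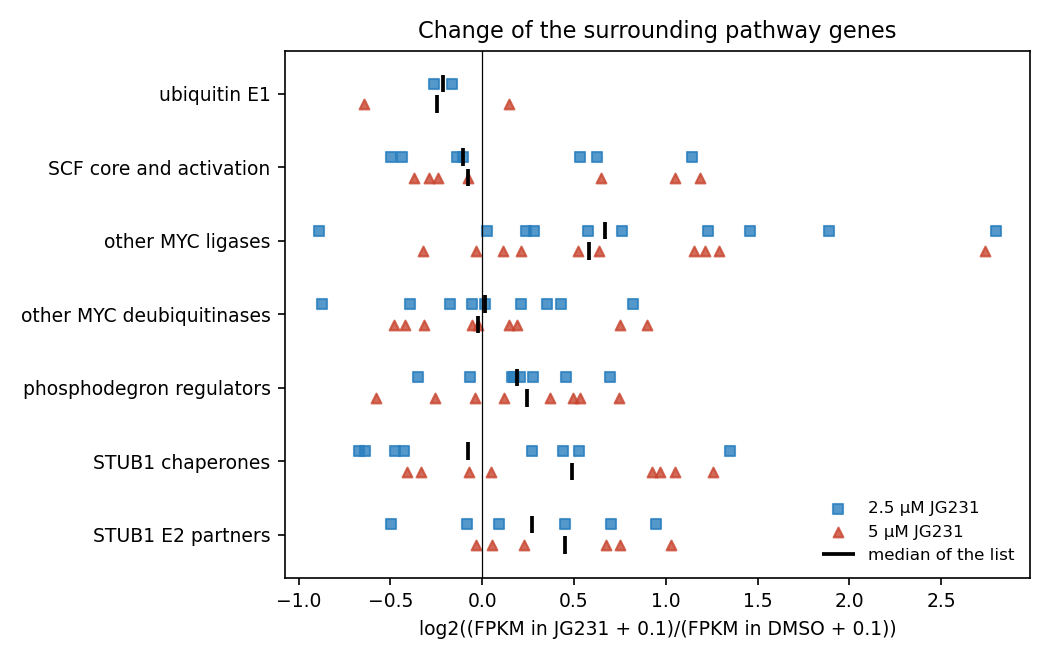
Log2 difference from DMSO at 2.5 μM and 5 μM for each gene of the ubiquitin and chaperone lists with a mean of at least 1 FPKM, 1 point per gene and a bar at the median of each list. The other MYC ligases have medians of 0.67 and 0.58, and the other deubiquitinases have medians of 0.01 and -0.02.

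The substrates themselves were read beside their regulators. MYCN, which encodes N-Myc, was at 0.69 FPKM with DMSO, 0.23 with 2.5 μM and 0.56 with 5 μM, from about 31, 13 and 37 fragments, and was below the limit of 1 FPKM in all 3 libraries. MYC was at 4.62, 49.9 and 45.5 FPKM, with log2 differences of 3.40 and 3.27. MYCL was at 20.9, 6.11 and 6.33 FPKM, with differences of -1.76 and -1.70, and MAX, the dimer partner of all of them, was at 10.5, 21.3 and 19.7 FPKM. The 9 regulators thus showed smaller differences than MYC did at either dose.

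Genes whose pattern over the 3 libraries was most like that of STUB1 and UBB were sought among 69 genes of the lists, by the distance between log2 profiles centred on their own means. For STUB1 they included PLK1 (distance 0.13) and UBE2N (0.16). For UBB they were UBE2V1 (0.12), NEDD8 (0.12) and HSPA8 (0.14). With 3 libraries these distances are a description only.

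MYC and MAX bind the E-box CACGTG, and the available promoters were searched for it on both strands. The RefSeq table (GRCh38.p14) held 18 windows, from 250 bases before to 50 after a start, for 8 of the 9 genes, and STUB1 was the gene not matched there, so its promoter was not searched. The letters CACGTG were found in 2 of these 18 windows, those of USP28 and USP36, and in 7.26% of the 35116 windows in the table. The USP28 window lies at chr11:113875523-113875822 on the minus strand with the E-box 174 bases before the start, and that of USP36 lies at chr17:78840765-78841064 on the minus strand with the E-box 27 bases before it. Both are shown with the E-box in capitals, because they belong to deubiquitinases whose differences from DMSO had opposite signs.
USP28 promoter: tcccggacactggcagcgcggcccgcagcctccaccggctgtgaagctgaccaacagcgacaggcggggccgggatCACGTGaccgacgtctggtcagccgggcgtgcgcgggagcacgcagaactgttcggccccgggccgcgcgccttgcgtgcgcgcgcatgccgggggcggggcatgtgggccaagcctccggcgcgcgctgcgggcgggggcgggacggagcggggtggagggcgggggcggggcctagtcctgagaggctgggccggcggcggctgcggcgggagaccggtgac
USP36 promoter: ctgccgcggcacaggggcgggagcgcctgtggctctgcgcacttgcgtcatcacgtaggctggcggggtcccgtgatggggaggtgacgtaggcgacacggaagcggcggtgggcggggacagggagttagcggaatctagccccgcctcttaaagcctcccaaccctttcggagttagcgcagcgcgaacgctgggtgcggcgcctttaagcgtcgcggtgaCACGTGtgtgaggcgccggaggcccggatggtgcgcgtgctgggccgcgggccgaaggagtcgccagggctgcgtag
Neither USP28, lower by 0.44 at 5 μM on the log2 scale, nor USP36, higher by 0.86, was tested for binding in these data. Of the heat shock element pairs, GAANNTTC was in 0 of the 18 windows and in 6.77% of all windows, and TTCNNGAA was in 1 window, of HUWE1, and in 7.74% of all windows. TGATGNAA, the core of the amino acid response element, was in 0 of the 18 and in 3.62% of all windows. A match of letters is not evidence of a bound site.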

How the data were processed

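H660 cells kept for 24 h in DMSO, 2.5 μM or 5 μM JG231 gave 1 RNA-seq library each. The authors deposited FPKM per Ensembl gene in 1 table. Their methods name HISAT and StringTie within a Top Hat-Cufflinks pipeline, the submitters' processing notes name HISAT2, featureCounts and GRCh38 (hg38), and input is given as 1 μg of total RNA in the methods and 100 ng in the sample records. Tool versions, annotation release and strand setting are not given in the sources used here. Conditions came from the sample labels.

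FPKM values are not counts, so no count model or test was applied. Log2 ratios used a pseudocount of 0.1, an FPKM over 1 in either library and an absolute difference over 0.25. Positions and lengths came from GENCODE release 44, in which 58207 of 58735 identifiers were found. Depth came from the steps of FPKM times exon length: of genes under 50 fragments, 90.5% (DMSO), 88.2% (2.5 μM) and 86.7% (5 μM) were within 0.1 of a whole number. Of those genes 50.9%, 45.7% and 23.6% held 8 fragments or fewer. Fragments of a gene are approximate where it has several transcripts. Intervals are exact binomial (Clopper-Pearson) at 95% and are too narrow if fragments are copies of fewer molecules.

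The length trend was a lowess fit with a fraction of 0.3 over 11200 protein-coding genes. The members and lists were chosen with earlier results of these data known. All members were named, with up to 3 genes per other list that had the largest difference at 5 μM among those past 0.25 in 1 direction at both doses, lists of 4 or fewer genes whole, the 3 genes most like STUB1 and UBB, and overlapping genes. Some genes that this rule names are not reported here. Alternatives were other pseudocounts, filters, limits and scalings, centring, length correction and summed symbols. Scripts were tested on simulated data and ran in Python 3.11.15, with statsmodels 0.14.6 for lowess, scipy 1.17.1 for intervals, matplotlib 3.10.9 for figures, and pandas 2.3.3 and numpy 2.4.6 for tables.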

Additional observations from a re-analysis of the deposited data

How the results depend on the processing

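With a limit of 1 on the log2 scale in place of 0.25, 2 of the 9 genes passed at 2.5 μM, 2 at 5 μM and 0 between the doses. Scaling each library to a common sum moved the median of all genes by 0.05 at 2.5 μM, -0.14 at 5 μM and -0.19 between the doses, and the median of the 9 genes at 5 μM became -0.16. Leaving mitochondrial and small RNA genes out of that sum moved the median of all genes by -0.28 and -0.38 and gave medians of the 9 genes of -0.50 at 2.5 μM and -0.39 at 5 μM. Of the 9 genes, 2 were then higher and 6 lower at each dose, and higher genes made up 30.4% (2.5 μM) and 27.6% (5 μM) of all genes past the limit, against 45.6% and 44.7% as deposited. That scaling turned USP7 at 2.5 μM to -0.030 and STUB1 at 5 μM to -0.0029, and removal of the length trend turned STUB1 at 5 μM to -0.086. Among values within 0.25 of DMSO as deposited, that scaling gave -0.33 for USP7 and -0.46 for UBB at 5 μM, -0.28 for STUB1 at 2.5 μM, and -0.50 and -0.39 for FBXW7 at 2.5 and 5 μM, and removal of the trend gave 0.33 for USP7 and 0.23 for FBXW7 at 5 μM and -0.32 for STUB1 at 2.5 μM. In all, 2 genes had both signs at 2.5 μM and 3 at 5 μM. Between the doses, the common sum left higher genes at 27.2% of those past the limit, against 47.1%. A mean of at least 5 FPKM raised the higher share to 64.8% and 64.1%. Over all alternatives run, TRIM32 lay between 0.98 and 1.31 at 2.5 μM and between 0.76 and 1.18 at 5 μM, USP36 between 0.39 and 0.83 and between 0.48 and 1.15, HUWE1 between -1.38 and -0.69 and between -1.79 and -0.72, SKP2 between -0.70 and -0.36 and between -1.07 and -0.65, and USP28 between -0.57 and -0.19 and between -0.82 and -0.25. Leaving out a replicate was not possible with 1 library per condition. No paired analysis was possible because each condition has 1 library and no result comes from a test. Depth limits low genes: MYCN rested on about 37 fragments or fewer and UBE2V1 on about 136 or fewer in every library.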
